A study of Homo sapiens with 3 samples.

Results

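The 36 genes described here are members of the BCL2 family, caspases, inhibitors of apoptosis, death receptors and their adaptors. They were picked by name for their function, though with earlier results of these data already known. All 36 were present, 1 row each, among the 35851 rows of the deposited expression table. Their levels come from RNA-seq of poly(A) RNA in 3 libraries of 5637 cells, an established human bladder cancer line. Cells of 2 libraries were transfected with siRNA against MYBL2 (siMYBL2-1 and siMYBL2-2) and those of 1 library with the control siRNA siNC, all with Lipofectamine 3000 and all labelled WT in genotype. The sources used here do not give the time after transfection, whether -1 and -2 are different siRNA sequences, or whether cultures were separate. P-values therefore measure only how far these samples spread, which may be technical. MYBL2 is a DNA-binding factor of the MYB family, known for driving genes of the G2 and M phases together with MuvB, and the series set out to find its downstream genes.

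Apoptosis is controlled at the mitochondrion by the BCL2 family and at the cell surface by death receptors, and both routes end in caspases. Antiapoptotic BCL2 proteins hold the pore formers BAX and BAK1 in check, and BH3-only proteins bind and neutralise the antiapoptotic members or activate the pore formers. Open pores release DIABLO and cytochrome c, APAF1 then assembles the platform that activates caspase-9, and the inhibitors of apoptosis restrain caspases. Death receptors such as FAS and the TRAIL receptors instead recruit the adaptor FADD and caspase-8.

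The reads behind the deposited RPKM values (reads per kilobase of exonic length, scaled to library depth) numbered 41818861 in siMYBL2-1, 46177658 in siMYBL2-2 and 40259436 in siNC. MYBL2 itself was at 46.0 RPKM in siMYBL2-1 and 56.3 RPKM in siMYBL2-2, against 211 RPKM in siNC, which is 4.59-fold and 3.75-fold lower. Its log2 change was -2.03 (SE 0.30), and it did not pass by limma (adjusted p 0.153) but did by limma-voom on the recovered reads (adjusted p 0.00811). All 7 epithelial markers were expressed, and their lowest value was 8.98 RPKM (CDH1 in siMYBL2-2). Their summed level was 2459 RPKM in siMYBL2-1, 1889 RPKM in siMYBL2-2 and 2159 RPKM in siNC. Leukocyte, fibroblast and endothelial lists had 3 of 4 markers each under 0.1 RPKM in all libraries, PTPRC and COL3A1 among them. The remaining ones were CD68 (at most 5.34 RPKM), COL1A1 (at most 2.03 RPKM) and KDR (at most 0.168 RPKM). Only 6.64% of the exonic bases of CD68 belong to no other row, so its value may include reads of overlapping rows.

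No apoptosis gene passed the test across all genes. Levels were tested as log2(RPKM + 1) with limma-trend for the 13274 rows with a mean of at least 1 RPKM, at a Benjamini-Hochberg adjusted p of 0.05. Of the 36 genes 30 reached that mean, and BCL2, BOK, BBC3, HRK, CASP9 and CASP10 did not. The test called 0 of the 30, with 4 at an unadjusted p under 0.05, and limma-voom on the recovered reads likewise called 0, with 4 at an unadjusted p under 0.05. Of all 13274 genes tested, 625 had an unadjusted p under 0.05 by limma and 629 by limma-voom. Over all genes tested limma called 0.00753%, which is 1 gene (ANKRD1, higher in the siMYBL2 pair). The control group is 1 library, assumed to vary like the siMYBL2 pair, so the values below are descriptions of these libraries, with 95% intervals for counting error only.

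Relative to siNC, both siMYBL2 libraries were lower for 13 of the 30 genes and higher for 7, and they lay on opposite sides for 10. That is 43.3% lower in both, beside 36.4% of all genes tested, and 23.3% higher in both, beside 29.7%. The median difference in log2(RPKM + 1) was 0.059 in siMYBL2-1 and -0.077 in siMYBL2-2, beside -0.041 and -0.014 over all genes tested. Both ratios share the siNC library, so a deviation of that library moves both the same way. Counting all 36 genes, 18 were lower in both, 8 higher in both and 10 opposite.

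**Figure D1:**
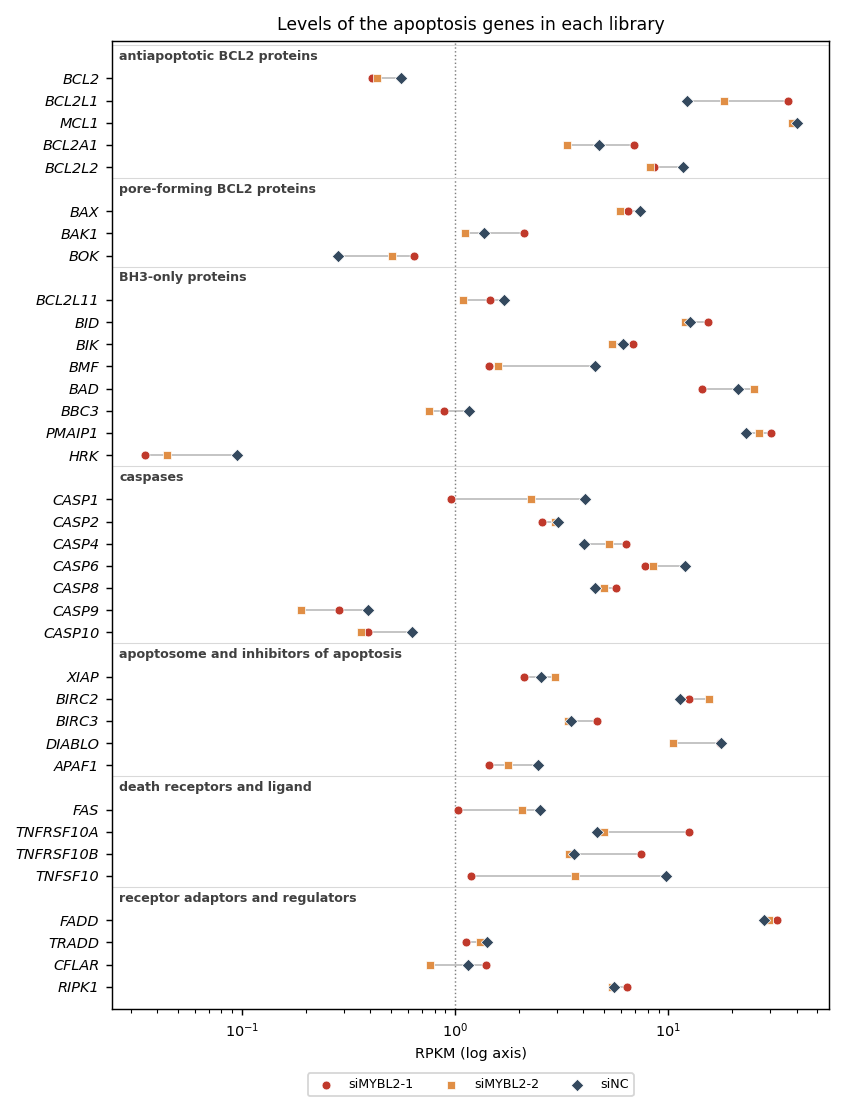
RPKM (log axis) of the 36 apoptosis genes in siMYBL2-1 (circles), siMYBL2-2 (squares) and siNC (diamonds), grouped by role, 1 library a point. The dotted line marks 1 RPKM, and levels span 0.0349 RPKM (HRK in siMYBL2-1) to 40.1 RPKM (MCL1 in siNC).

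By size, TNFSF10, CASP1 and BMF had plain RPKM ratios to siNC at least 1.5-fold below 1 in each siMYBL2 library, which is 3 of 30 or 10.0%, beside 4.11% of all genes tested. At least 1.5-fold higher in both were 0 of 30, beside 2.64%. In siMYBL2-1 alone 11 of 30 genes (36.7%) differed at least 1.5-fold from siNC in either direction, beside 26.1% of all genes tested, and in siMYBL2-2 alone 5 of 30 (16.7%), beside 13.5%. The siMYBL2-1 library was the farther from siNC for 22 of the 30 genes and for 62.1% of all genes tested. Among the 36 genes, the counting interval of the ratio between the siMYBL2 libraries left out 1 for 26. For these 26 the pair differed by more than counting error. The share over all genes was not computed, so the count is not a trait of the apoptosis genes.

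**Figure D2:**
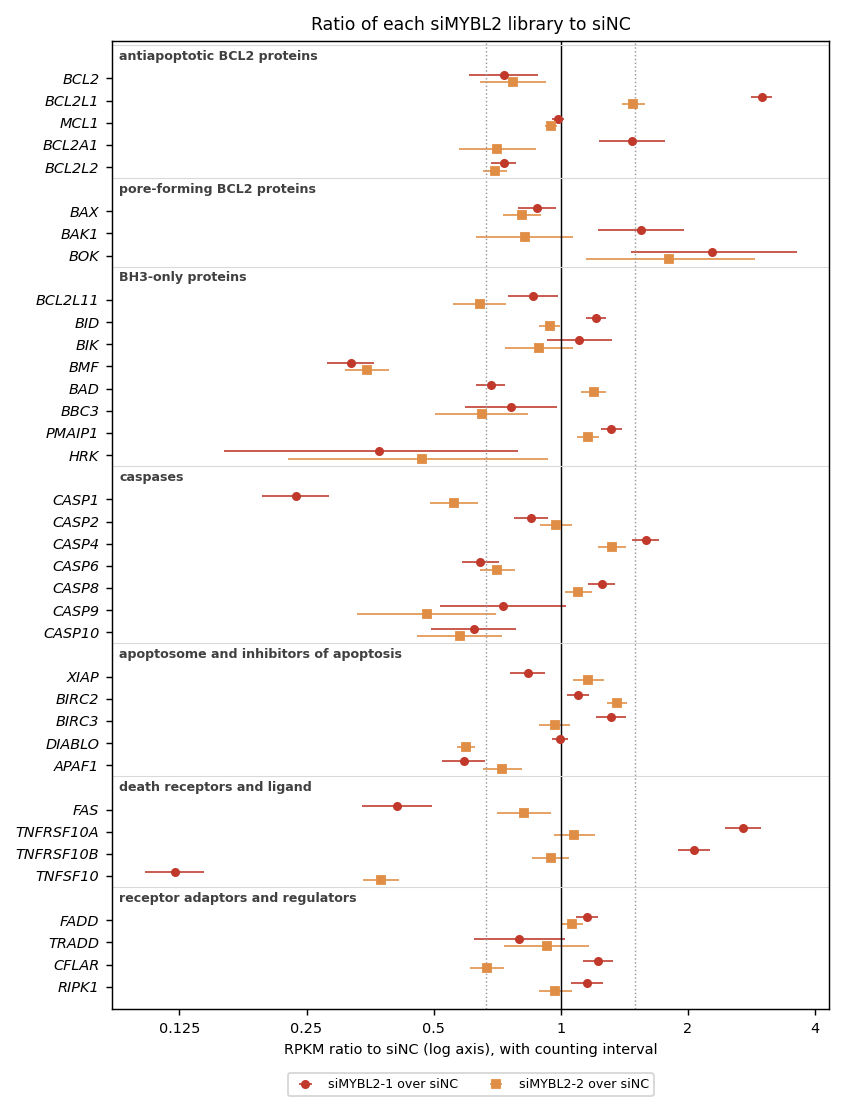
RPKM ratio to siNC (log axis) of each apoptosis gene in siMYBL2-1 (circles) and siMYBL2-2 (squares), with 95% counting intervals, and dotted lines at 1.5-fold. TNFSF10, CASP1 and BMF lie left of the lower dotted line in both libraries, as do the lowly expressed CASP10 and HRK, while BOK lies right of the upper one.

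Promoters are shown for TNFSF10, BMF and BCL2L1, the genes with the largest mean absolute log2 difference to siNC over both siMYBL2 libraries, because MYBL2 is a DNA-binding factor. Each sequence is the 250 bases before the outermost RefSeq start of the gene on GRCh38.p14, 5′ to 3′ on the strand of the gene, and RefSeq promoters were found for 28 of the 36 genes. They come from chr3:172523431-172523680, chr15:40108880-40109129 and chr20:31723964-31724213, all on the minus strand. Capitals mark matches on either strand to the MYB core AACNG or to a loose NF-kB pattern (GGG, any 5 bases, then CC).
TNFSF10: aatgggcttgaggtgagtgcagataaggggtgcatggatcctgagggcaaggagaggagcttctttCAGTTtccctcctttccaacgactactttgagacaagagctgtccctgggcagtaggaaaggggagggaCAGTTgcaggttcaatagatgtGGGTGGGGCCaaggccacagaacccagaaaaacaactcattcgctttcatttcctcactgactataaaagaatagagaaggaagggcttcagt
BMF: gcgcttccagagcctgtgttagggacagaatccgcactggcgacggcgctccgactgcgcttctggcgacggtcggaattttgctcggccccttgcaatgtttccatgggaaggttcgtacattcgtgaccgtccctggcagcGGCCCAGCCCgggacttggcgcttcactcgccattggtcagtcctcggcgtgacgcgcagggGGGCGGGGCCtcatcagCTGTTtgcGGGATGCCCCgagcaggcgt
BCL2L1: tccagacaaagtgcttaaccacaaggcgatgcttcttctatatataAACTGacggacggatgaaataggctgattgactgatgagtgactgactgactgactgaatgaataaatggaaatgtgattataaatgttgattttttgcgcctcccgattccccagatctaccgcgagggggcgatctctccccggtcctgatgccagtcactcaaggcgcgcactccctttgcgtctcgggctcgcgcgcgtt

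TNFSF10 had 2 matches to the MYB core, at 184 to 180 and 115 to 111 bases before the start, BMF 1 match at 28 to 24 bases and BCL2L1 1 match at 204 to 200 bases. BMF had 3 matches to the NF-kB pattern, TNFSF10 had 1 and BCL2L1 none. The MYB core occurred in 19 of the 28 promoters and in 70.6% of 27305 promoters of the same length, and the NF-kB pattern in 20 of 28 and in 53.6%. TTTGAA, the core of the cell cycle homology region bound by MuvB, occurred in 2 of 28 (BOK and FAS) and in 13.6% of all, and the AP-1 site TGANTCA in 2 of 28 (BBC3 and FAS) and in 6.57%. None of the 3 promoters shown held TTTGAA or TGANTCA. A match is a description of letters in this window and no binding site.

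The death receptor genes held the largest single difference, with the ligand lower in both siMYBL2 libraries and its receptors higher in siMYBL2-1. TNFSF10 encodes TRAIL, the ligand of the TRAIL receptors (chromosome 3, 172505508 to 172523507, minus strand, hg38). It was at 1.19 RPKM in siMYBL2-1 (173 reads) and 3.67 RPKM in siMYBL2-2 (588 reads), against 9.77 RPKM in siNC (1366 reads). Both siMYBL2 libraries lay below siNC, and they also lay apart from each other. The siMYBL2-1 level was 8.20-fold lower (interval 7.00 to 9.66) and the siMYBL2-2 level 2.66-fold lower (2.42 to 2.94), and the pair averaged 2.43 ± 1.75 RPKM (SD, n = 2). The log2 change was -1.75 (SE 0.41), with a limma adjusted p of 0.441 and one of 0.135 by limma-voom, the lowest of its alternatives, which reached 1.00. In bulk RNA, fewer cells that express a gene and less RNA per cell cannot be told apart.

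TNFRSF10A and TNFRSF10B encode the TRAIL receptors that carry a death domain, and they lie near each other on the minus strand of chromosome 8 (23190452 to 23225126 and 23020133 to 23069179). TNFRSF10A was at 12.4 RPKM in siMYBL2-1 (1536 reads) and 4.98 RPKM in siMYBL2-2 (678 reads), against 4.62 RPKM in siNC (549 reads). TNFRSF10B was at 7.45 RPKM in siMYBL2-1 (1607 reads) and 3.42 RPKM in siMYBL2-2 (814 reads), against 3.61 RPKM in siNC (750 reads). For both receptors siMYBL2-1 stood above the other libraries, which lay close together. TNFRSF10A was 2.69 times siNC in siMYBL2-1 (2.44 to 2.97) and 1.08 times in siMYBL2-2 (0.961 to 1.21), and TNFRSF10B was 2.06 times (1.89 to 2.25) and 0.946 times (0.856 to 1.05). Within the siMYBL2 pair they differed 2.50-fold (2.28 to 2.74) and 2.18-fold (2.00 to 2.37). The limma adjusted p was 0.999 for each. Of the epithelial markers, CDH1 (36.2 RPKM in siMYBL2-1 and 8.98 RPKM in siMYBL2-2, against 14.8 RPKM in siNC), EPCAM (177 and 71.8 RPKM, against 102 RPKM), KRT7, KRT8 and KRT18 were likewise highest in siMYBL2-1. KRT5 (176 and 230 RPKM, against 315 RPKM) and KRT19 (800.4 and 716 RPKM, against 949 RPKM) were highest in siNC. Their part in the differences of the receptors and of BCL2L1 was not tested.

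FAS, the receptor of FAS ligand and a known p53 target, went the other way (chromosome 10, 88990582 to 89015785, plus strand). It was at 1.03 RPKM in siMYBL2-1 (161 reads) and 2.05 RPKM in siMYBL2-2 (355 reads), against 2.50 RPKM in siNC (378 reads). FAS was thus lower in both, by 2.44-fold (2.02 to 2.95) and 1.22-fold (1.05 to 1.42), with a limma adjusted p of 0.999. In siMYBL2-1 the surface receptors thus differed in opposite directions, TRAIL receptors higher and FAS lower.

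**Figure D3:**
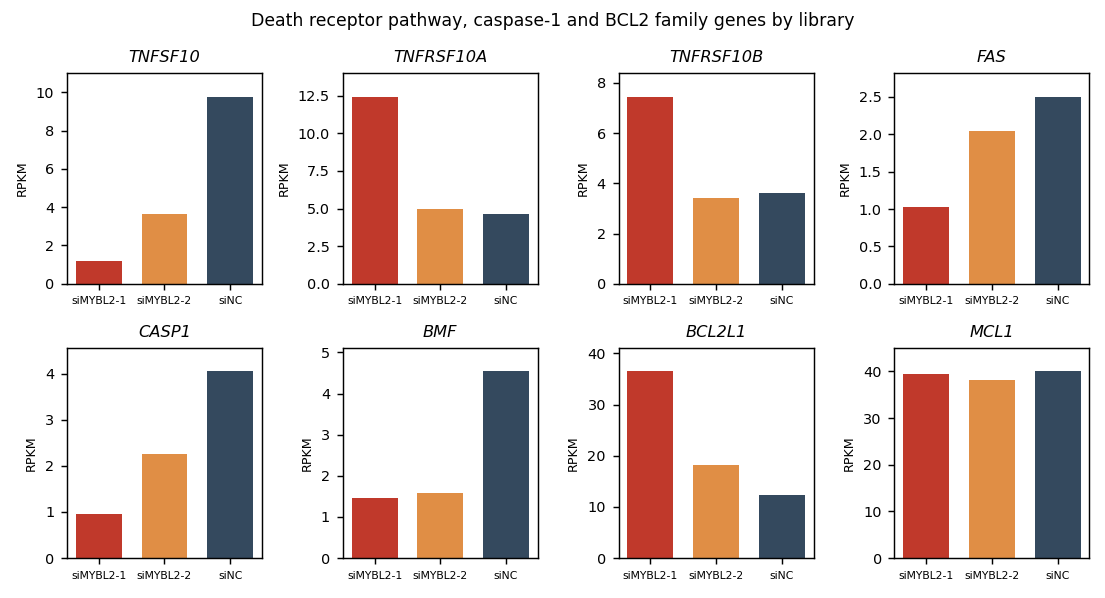
RPKM of 8 apoptosis genes in siMYBL2-1, siMYBL2-2 and siNC, 1 library a bar, each panel with its own axis starting at 0. TNFSF10, CASP1 and BMF are lower in both siMYBL2 libraries than in siNC, TNFRSF10A and TNFRSF10B stand out in siMYBL2-1 alone, and MCL1 is level at 38.1 to 40.1 RPKM.

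Adaptors and regulators downstream of the receptors differed less, and none of the 4 reached 1.5-fold in either library. FADD, the adaptor that bridges FAS and TRAIL receptors to caspase-8, was at 32.3 and 29.8 RPKM in siMYBL2-1 and siMYBL2-2, against 28.0 RPKM in siNC. RIPK1, a kinase that steers TNF receptor signals between survival and death, was at 6.43 and 5.42 RPKM, against 5.59 RPKM in siNC. TRADD, the adaptor of the TNF receptor, was low, at 1.13 and 1.31 RPKM, against 1.41 RPKM. CFLAR encodes FLIP, a caspase-8 homologue that blocks or tunes its activation, and was the member of this group with the largest difference. CFLAR was at 1.40 RPKM in siMYBL2-1 (1320 reads) and 0.763 RPKM in siMYBL2-2 (794 reads), against 1.14 RPKM in siNC (1037 reads). The siNC value lay between the siMYBL2 values, at 1.23 times (1.13 to 1.33) and 0.668 times (0.608 to 0.733) siNC. Only 45.1% of the exonic bases of FADD belong to no other row, because an antisense row covers the rest, and no strand setting of the counting is given in the sources used here.

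BH3-only genes were led by BMF, whose product is known to be held at the cytoskeleton and to signal detachment from the matrix. BMF (chromosome 15, 40087890 to 40108892, minus strand) was at 1.45 RPKM in siMYBL2-1 (330 reads) and 1.58 RPKM in siMYBL2-2 (398 reads), against 4.55 RPKM in siNC (998 reads). The siMYBL2 values lay close together and both below siNC, averaging 1.52 ± 0.0945 RPKM (SD, n = 2). BMF was thus 3.14-fold (2.77 to 3.57) and 2.88-fold (2.56 to 3.24) lower. The ratio between the siMYBL2 libraries was 0.916 (0.789 to 1.06), so this pair did not differ beyond counting error. The log2 change of -1.14 (SE 0.28) did not pass limma (adjusted p 0.459), and over the alternatives the adjusted p lay between 0.226 and 1.00.

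The other BH3-only genes split by direction. PMAIP1 encodes NOXA, a partner of MCL1, and was the most abundant of them, at 30.3 and 26.7 RPKM in siMYBL2-1 and siMYBL2-2, against 23.1 RPKM in siNC. BCL2L11 encodes BIM, an activator of BAX, and was at 1.45 and 1.09 RPKM, against 1.70 RPKM. BBC3 encodes PUMA, a p53 target, and was at 0.887 and 0.756 RPKM, against 1.16 RPKM. NOXA transcripts were thus higher and those of BIM and PUMA lower in both siMYBL2 libraries. HRK, known mainly from neurons, was near the limit of detection, with 10 and 14 reads in the siMYBL2 libraries, against 26 reads in siNC.

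BAD, BID and BIK went in opposite directions in the siMYBL2 libraries. BAD, which growth factor kinases inactivate, was at 14.4 RPKM in siMYBL2-1 and 25.4 RPKM in siMYBL2-2, against 21.2 RPKM in siNC. BID, which caspase-8 cleaves to link death receptors to mitochondria, was at 15.4 and 11.9 RPKM, against 12.7 RPKM. BIK, an endoplasmic reticulum member, was at 6.80 and 5.45 RPKM, against 6.15 RPKM, and both of its intervals against siNC held 1. The rows of BAD and GPR137, on opposite strands, share exonic bases, and 65.7% of those of BAD are its own. The summed level of the 8 BH3-only genes was 70.8 RPKM in siMYBL2-1, 73.0 RPKM in siMYBL2-2 and 70.6 RPKM in siNC.

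Among the antiapoptotic genes BCL2L1 was the one that differed most. It encodes BCL-XL, a major survival protein of epithelial tumours (chromosome 20, 31664452 to 31723989, minus strand). BCL2L1 was at 36.6 RPKM in siMYBL2-1 (5068 reads) and 18.2 RPKM in siMYBL2-2 (2783 reads), against 12.2 RPKM in siNC (1634 reads). Both siMYBL2 libraries lay above siNC, siMYBL2-1 by far the more, at 2.99 times (2.82 to 3.16) and 1.48 times (1.40 to 1.58). The ratio between the siMYBL2 libraries was 2.01 (1.92 to 2.11), larger than the ratio of siMYBL2-2 to siNC. The log2 change was 1.02 (SE 0.39), with a limma adjusted p of 0.934. The row of ABALON, a long noncoding RNA on the opposite strand, covers most of the BCL2L1 exons and leaves 31.2% of their bases to BCL2L1 alone. ABALON was at 54.8 RPKM in siMYBL2-1 and 26.8 RPKM in siMYBL2-2, against 17.9 RPKM in siNC, and without a strand setting shared reads cannot be told apart between BCL2L1 and ABALON.

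MCL1, a short-lived survival protein, was the most abundant apoptosis gene in every library and differed least. MCL1 was at 39.5 and 38.1 RPKM in siMYBL2-1 and siMYBL2-2, against 40.1 RPKM in siNC, or 0.986 times (0.954 to 1.02) and 0.950 times (0.919 to 0.981). BCL2L2, which encodes BCL-W, was at 8.60 and 8.20 RPKM, against 11.7 RPKM, 1.37-fold and 1.43-fold lower. The readthrough row BCL2L2-PABPN1 on the same strand shares exons with BCL2L2, and 66.1% of the bases of BCL2L2 are its own. BCL2A1, an NF-kB target, was at 6.94 RPKM in siMYBL2-1 (316 reads) and 3.34 RPKM in siMYBL2-2 (168 reads), against 4.72 RPKM in siNC (207 reads), so siNC lay between the siMYBL2 values. BCL2, the founding member, was hardly expressed, at 0.409 and 0.429 RPKM, against 0.557 RPKM.

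The make-up of the antiapoptotic transcripts therefore differed between the libraries. The summed level of the 5 genes was 92.1 RPKM in siMYBL2-1, 68.3 RPKM in siMYBL2-2 and 69.4 RPKM in siNC. BCL2L1 made up 39.7% of that sum in siMYBL2-1 and 26.6% in siMYBL2-2, against 17.7% in siNC. MCL1 made up 43.0% and 55.8%, against 57.8% in siNC. These shares take the BCL2L1 row as deposited, with the bases it shares with ABALON.

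**Figure D4:**
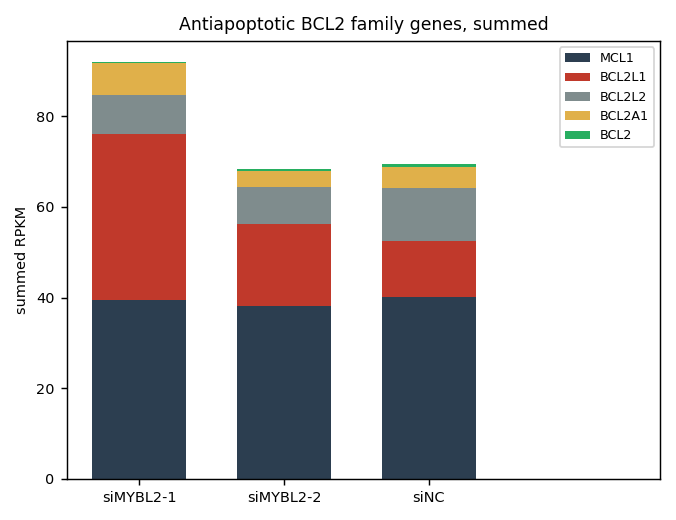
Summed RPKM of the antiapoptotic BCL2 family genes in siMYBL2-1, siMYBL2-2 and siNC, 1 library a bar, stacked by gene from MCL1 at the base to BCL2 at the top. The MCL1 block is nearly the same height in all libraries, and the BCL2L1 block is 36.6, 18.2 and 12.2 RPKM high.

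Pore-forming genes were low and differed little in absolute level. BAX was at 6.44 and 5.93 RPKM in siMYBL2-1 and siMYBL2-2, against 7.35 RPKM in siNC, 0.877 times (0.790 to 0.973) and 0.807 times (0.727 to 0.895). BAK1, the other main pore former, was at 2.10 RPKM in siMYBL2-1 (194 reads) and 1.12 RPKM in siMYBL2-2 (114 reads), against 1.36 RPKM in siNC (121 reads). BAX was thus lower in both libraries, while BAK1 was higher in siMYBL2-1 only, with a siMYBL2-2 interval (0.630 to 1.07) that held 1. BOK, a distant relative found at the endoplasmic reticulum, was at 0.639 RPKM (71 reads) and 0.505 RPKM (62 reads), against 0.280 RPKM (30 reads), or 2.28 times (1.47 to 3.62) and 1.80 times (1.15 to 2.89). BOK was too low to enter the test.

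CASP1, the inflammasome caspase that matures interleukin-1 beta, differed most among the caspases (chromosome 11, 105025443 to 105035250, minus strand). CASP1 was at 0.957 RPKM in siMYBL2-1 (148 reads) and 2.27 RPKM in siMYBL2-2 (387 reads), against 4.06 RPKM in siNC (604 reads). Both siMYBL2 libraries lay below siNC, 4.24-fold (3.54 to 5.11) and 1.79-fold (1.57 to 2.04), and they differed 2.37-fold from each other (1.95 to 2.88). Its limma adjusted p was 0.827. CASP4, which senses cytosolic lipopolysaccharide and lies on the same strand nearby (104942866 to 104969436), went the opposite way. CASP4 was at 6.36 RPKM (1930 reads) and 5.29 RPKM (1774 reads), against 4.01 RPKM (1171 reads), 1.59 times (1.47 to 1.71) and 1.32 times (1.23 to 1.42) siNC, with a limma adjusted p of 0.999.

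Of the apoptotic caspases, CASP8 was higher in both siMYBL2 libraries and the others were lower in both. CASP8, the initiator at death receptors, was at 5.68 and 5.00 RPKM in siMYBL2-1 and siMYBL2-2, against 4.55 RPKM in siNC. CASP6, an executioner, was at 7.77 and 8.52 RPKM, against 12.04 RPKM, 1.55-fold and 1.41-fold lower. CASP2, the initiator of the PIDDosome, was at 2.57 and 2.94 RPKM, against 3.02 RPKM, and its siMYBL2-2 interval held 1. CASP10, a death receptor initiator, and CASP9, the apoptosome caspase, were both under 1 RPKM. CASP10 was at 0.390 RPKM (124 reads) and 0.362 RPKM (127 reads), against 0.628 RPKM (192 reads), and CASP9 at 0.286 RPKM (63 reads) and 0.189 RPKM (46 reads), against 0.391 RPKM (83 reads), with an interval in siMYBL2-1 that held 1 (0.518 to 1.03). CFLAR, CASP10 and CASP8 lie side by side on the plus strand of chromosome 2 (201116104 to 201287711) and had ratios to siNC of 1.23, 0.622 and 1.25 in siMYBL2-1 and of 0.668, 0.577 and 1.10 in siMYBL2-2, so the ratios of these neighbours differed.

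In the apoptosome arm APAF1, the scaffold that activates caspase-9, differed most. APAF1 was at 1.44 RPKM in siMYBL2-1 (475 reads) and 1.77 RPKM in siMYBL2-2 (648 reads), against 2.44 RPKM in siNC (777 reads), 1.70-fold (1.51 to 1.91) and 1.38-fold (1.24 to 1.53) lower. DIABLO encodes SMAC, which displaces inhibitors of apoptosis from caspases, and was at 17.6 RPKM in siMYBL2-1 and 10.5 RPKM in siMYBL2-2, against 17.6 RPKM in siNC. Only siMYBL2-2 stood apart for DIABLO, 1.68-fold lower (1.60 to 1.76), and rows that overlap it leave 49.0% of its bases its own.

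The inhibitors of apoptosis differed by less than 1.5-fold. XIAP, the direct caspase inhibitor, was at 2.11 RPKM in siMYBL2-1 and 2.93 RPKM in siMYBL2-2, against 2.52 RPKM in siNC. BIRC2, which ubiquitinates RIPK1, was at 12.5 and 15.5 RPKM, against 11.4 RPKM. BIRC3, its NF-kB-induced paralogue next to it on chromosome 11, was at 4.61 and 3.39 RPKM, against 3.51 RPKM. BIRC2 was therefore higher in both libraries, while siNC lay between the siMYBL2 values for XIAP and within counting error of siMYBL2-2 for BIRC3.

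**Figure D5:**
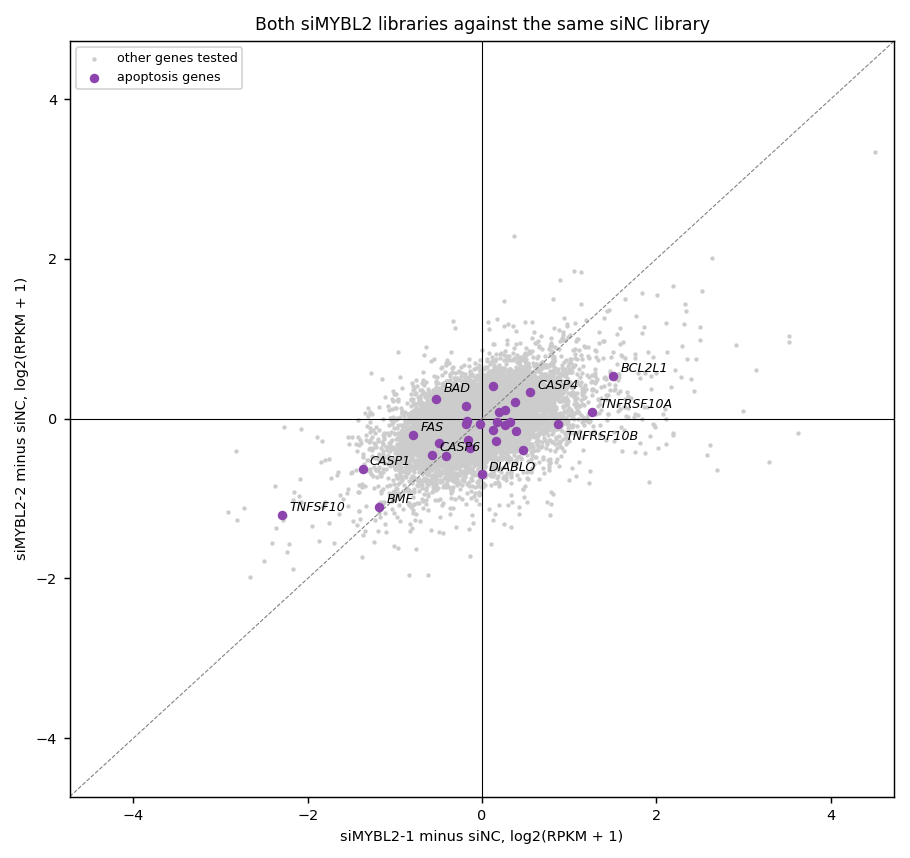
Difference in log2(RPKM + 1) to siNC in siMYBL2-1 (x axis) and siMYBL2-2 (y axis) for the 30 apoptosis genes tested (large points) and all other genes tested (small points), with the line of equal values dashed. Both axes share the siNC library. TNFSF10, BMF and CASP1 lie at the lower left, BCL2L1 at the right, and TNFRSF10A and TNFRSF10B lie to the right near the zero of the y axis.

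Members known as NF-kB targets (BIRC2, BIRC3, CFLAR, BCL2A1 and BCL2L1) included 0 of 5 that were lower in both libraries, with 2 that were higher in both and 3 opposite, with a median log2 difference of 0.32 in siMYBL2-1 and -0.038 in siMYBL2-2. Members known as p53 targets numbered 7, of which 6 were tested, BBC3 being too low. Of these 6, 3 were lower in both, 1 was higher in both and 2 were opposite, with medians of 0.046 and -0.14. Of all genes tested 36.4% were lower in both and 29.7% higher in both, with medians of -0.041 and -0.014. Limma called none of the members of either list (1 and 0 at an unadjusted p under 0.05, and the same numbers by limma-voom). Over all 13274 genes tested, 625 had an unadjusted p under 0.05 by limma and 629 by limma-voom.

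Of 50 other genes of the pathway, FASLG was not analysed here, 49 were in the table and 36 were tested. Both siMYBL2 libraries were lower for 8 of these 36 and higher for 15, with 13 on opposite sides of siNC, beside 36.4% and 29.7% of all genes tested that were lower or higher in both. Limma and limma-voom each called 0 of the 36. At an unadjusted p under 0.05 was 1 of the 36 by either test, beside 625 (limma) and 629 (limma-voom) of all 13274 genes tested. Among those on the same side of siNC in both libraries, TNFRSF21, a death receptor known as DR6, had the largest difference, at 26.1 RPKM in siMYBL2-1 and 12.1 RPKM in siMYBL2-2, against 8.11 RPKM in siNC (limma adjusted p 0.940). BAG3, a chaperone partner that supports survival, was at 33.3 and 31.0 RPKM, against 22.7 RPKM, and ITCH, a ubiquitin ligase that targets FLIP, at 12.4 and 13.1 RPKM, against 8.94 RPKM. On the lower side BIRC5 (survivin), a mitotic inhibitor of apoptosis, was at 15.1 and 15.5 RPKM, against 22.4 RPKM. CYLD, a deubiquitinase of NF-kB signalling, was at 0.631 and 1.15 RPKM, against 1.48 RPKM, and TNFRSF1A, the main TNF receptor, at 3.02 and 3.56 RPKM, against 4.61 RPKM.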

How the data were processed

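Poly(A) RNA was sequenced from 3 libraries of 5637 cells with a protocol that marks the second strand with dUTP, per the labels' protocols. The authors deposited 1 table of RPKM values with exon positions and exonic lengths, and the submitters' processing notes name cutadapt 1.9, HISAT2 2.0.4, StringTie 1.3.4d and hg38 without saying what each was used for. How reads were counted, on which strand and with which annotation is not given in the sources used here.

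Reads and their totals were recovered from RPKM times length, which came in whole steps of 1 read for 100% of values (tolerance 0.001 reads). At these depths 3 reads on 1 kilobase correspond to 0.0717 RPKM in siMYBL2-1, 0.0650 RPKM in siMYBL2-2 and 0.0745 RPKM in siNC. Intervals of ratios are exact conditional binomial intervals at 95% and cover counting error only (PCR copies were not marked by molecular identifiers). The test was limma-trend (limma 3.58.1, R 4.3.3) on log2(RPKM + 1), a scale that understates changes of low genes, with 1 residual degree of freedom and 10.2 after moderation. It was tested on simulated data with large changes put in and a preset spread between libraries. There it recovered most of the changed genes but made more false calls than its threshold allows, so adjusted p-values may be too small. Whether it recovers differences of the size and spread seen in these libraries was not tested. Here limma-trend did not call MYBL2 (adjusted p 0.153), which was 4.59-fold lower in siMYBL2-1 and 3.75-fold lower in siMYBL2-2 than in siNC.

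All 36 members are named, grouped by role. Reads and intervals are given for the member of each role group with the largest mean absolute log2 ratio, for members 1.5-fold different in the same direction in both libraries, and, added after their values were seen, for further members described at length. Of the other pathway genes tested, those named are the 3 in each direction with the largest mean difference in log2(RPKM + 1), among genes with the same sign in both siMYBL2 libraries. Members and lists were chosen with earlier results of these data known. Promoters are from RefSeq (GRCh38.p14). Other pseudocounts, filters, scalings and fits, and each siMYBL2 library alone, were tried as alternatives. The planned edgeR test was not run, because the deposited unit is RPKM. Of the interferon-stimulated genes listed after values were seen, 1 gene is not reported here and is left out of the counts of that list.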

Additional observations from a re-analysis of the deposited data

How the results depend on the processing

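None of the apoptosis genes passed the threshold under any of 8 alternatives with a test, and the lowest adjusted p was 0.135 (TNFSF10, limma-voom). Of 227 member values under these alternatives 4 reversed: BIK was at 0.021 and XIAP at 0.015 with median-ratio scaling, and at 0.019 and 0.013 with TMM scaling. Over all genes, the single higher call was lost (0 genes) with no minimum level, with a minimum of 5 RPKM and with either scaling, and limma-voom called 3 higher and 7 lower. MYBL2 passed under limma-voom only (adjusted p 0.00811, alternatives up to 1.00). With the minimum of 5 RPKM, 5 members were lower in both libraries, and the members' median in siMYBL2-1 was 0.17, and -0.050 without a minimum, since other members were then tested. With 1 siMYBL2 library against siNC, a value with no test, 15 to 21 of the 30 members were lower and 9 to 15 higher. The edgeR test on reads was not run. No paired analysis was possible because siNC is a single library. At this depth genes under 1 RPKM, such as HRK with 10 to 26 reads, have wide intervals.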

Other observations

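TNFSF10 and CASP1 are known in other settings as interferon-stimulated genes, and a list of 15 further interferon-stimulated genes was chosen after the values of the members had been seen. Of 9 that were tested, 6 had lower values in both siMYBL2 libraries, 0 had higher values in both and 3 lay on opposite sides of siNC, with a median log2 difference to siNC of -0.15 in siMYBL2-1 and -0.29 in siMYBL2-2. Over all genes tested 36.4% were lower in both and 29.7% higher in both, with medians of -0.041 and -0.014. GBP2, a guanylate-binding protein, was at 6.12 RPKM in siMYBL2-1 and 9.68 RPKM in siMYBL2-2, against 20.5 RPKM in siNC, IFI44 at 3.57 and 9.04 RPKM, against 11.5 RPKM, and GBP1 at 1.73 and 2.49 RPKM, against 3.25 RPKM. These 3 of the 9 tested genes of the list were at least 1.5-fold from siNC in siMYBL2-1, beside 26.1% of all genes tested. ISG15, a ubiquitin-like protein, was at 12.7 and 13.8 RPKM, against 15.1 RPKM, and MX1 at 1.54 and 1.26 RPKM, against 1.64 RPKM. Limma called 0 of the 9, with 1 at an unadjusted p under 0.05, and limma-voom called 0, with 2. Of all 13274 genes tested, 625 had an unadjusted p under 0.05 by limma and 629 by limma-voom. The genes of the list too low to be tested went both ways. IFI6 (0.387 RPKM in siMYBL2-1 and 0.826 RPKM in siMYBL2-2, against 0.258 RPKM in siNC), IFIT1 and OAS2 were higher in both siMYBL2 libraries. IFIT2, IRF7 and IFI27 were lower in both. OAS2 had 2 reads in siMYBL2-1 and 8 reads in siMYBL2-2, against 0 reads in siNC. IFI27 had 1 and 9 reads, against 17 reads. The counting interval against siNC held 1 for IFIT1 in both libraries. It also held 1 for IFI6 and IFIT2 in siMYBL2-1 and for IFI27 in siMYBL2-2.

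Other genes of TRAIL signalling, chosen after their values were seen, also stood highest in siMYBL2-1. TNFRSF10D, a TRAIL receptor without a full death domain that lies between TNFRSF10A and TNFRSF10B on chromosome 8, was at 4.001 RPKM in siMYBL2-1 and 1.69 RPKM in siMYBL2-2, against 2.24 RPKM in siNC. PEA15, a protein that binds FADD and blocks death receptor signals, was at 89.0 and 40.7 RPKM, against 42.9 RPKM.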
